A study of Mus musculus with 32 samples.

Results

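The non-classical MHC class I genes of a mouse lung endothelial cell (EC) line were examined across 8 groups of cultures. The 10 genes were chosen by symbol, as the rows of the merged count table named H2-Q4, H2-Q6, H2-Q7, H2-T10, H2-T22, H2-T23, H2-T24, H2-M3, Cd1d1 and Mr1, and all 10 were found among 54429 symbols. The cells, the Veravec line, are cultured lung ECs of the mouse. They were transfected with a non-targeting siRNA (si-control) or with siRNA that targets Dnmt1, the gene of the maintenance DNA methyltransferase (si-dnmt). The paper lists more than 1 Dnmt1 siRNA sequence without saying how they were combined. The transfection was repeated, and the cells were then given no cytokine, TNF (TNFα, 10 ng/mL), IFN (IFNγ, 1000 U/mL) or TNF + IFN for 16 h. Every group held 4 libraries of bulk RNA, 32 in all, numbered 1 to 4 and described by the study as biological replicates. All groups shared the cell line and the repeated transfection with siRNA, so each siRNA contrast compares Dnmt1 siRNA with control siRNA and not with untransfected cells, and all results are of 1 cultured line. DNA methylation was not analysed here.

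Classical class I molecules show peptides of a cell to CD8+ T cells. The non-classical members have the same fold and, for most of them, the same light chain, beta-2-microglobulin, but they vary little between individuals and serve more specialised receptors. H2-Q6 and H2-Q7 encode Qa-2, a class I molecule held in the membrane by a lipid anchor, and H2-Q4 is a neighbouring gene of the same Qa region. H2-T23 encodes Qa-1, which binds leader peptides of other class I molecules and is the ligand of the CD94-NKG2 receptors of NK cells. H2-T10 and H2-T22 encode molecules without bound peptide that are recognised by a subset of γδ T cells. The GENCODE M21 annotation lists H2-T10 as a polymorphic pseudogene, and whether its copy in this line is coding was not tested. H2-M3 presents N-formylated peptides of bacteria and mitochondria, CD1d presents lipids to NKT cells, and MR1 presents vitamin B metabolites to MAIT cells. IFNγ induces class I genes through IRF1 and the coactivator NLRC5, and TNFα does so through NF-κB.

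RefSeq promoter windows, from 250 bases before to 50 bases after the transcription start (assembly GRCm38.p6), were at hand for 7 of the 10 genes, and those of H2-T10, H2-T24 and Cd1d1 were not used here. The stretches below lie upstream of the start and are shown because they hold the letters of the NF-κB and interferon elements in the genes whose responses are compared below. Capitals mark matches to a κB element (GGGNNTTCC), to the letters GTTTCACTT found in the interferon-stimulated response element (ISRE) of class I genes, and to a general ISRE core (AAANNGAAA, here on the opposite strand). The 9 letters GTTTCACTT were added to the search after the sequences had been seen.
H2-Q4, chr17:35379433-35379492, plus strand: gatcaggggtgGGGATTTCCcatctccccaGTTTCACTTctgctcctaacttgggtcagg
H2-Q6, chr17:35424667-35424726, plus strand: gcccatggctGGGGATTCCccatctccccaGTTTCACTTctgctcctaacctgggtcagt
H2-Q7, chr17:35439011-35439070, plus strand: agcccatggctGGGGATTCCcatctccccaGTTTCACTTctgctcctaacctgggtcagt
H2-T22, chr17:36042905-36042964, minus strand: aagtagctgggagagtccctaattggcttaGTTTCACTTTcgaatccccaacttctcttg
H2-M3, chr17:37270102-37270161, plus strand: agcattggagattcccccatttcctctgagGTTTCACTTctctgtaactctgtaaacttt
H2-T23, chr17:36032796-36032855, minus strand: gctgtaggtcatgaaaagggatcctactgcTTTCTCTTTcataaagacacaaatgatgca
Mr1, chr1:155146879-155146938, minus strand: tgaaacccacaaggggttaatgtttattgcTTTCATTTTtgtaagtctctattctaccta

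The κB letters were found in 3 of the 7 windows, those of the Qa-region genes H2-Q4, H2-Q6 and H2-Q7, and in 5.82% of 32851 RefSeq promoter windows of the same length. The letters GTTTCACTT were in 5 of the 7 windows and in 0.399% of all promoters, which is no test, since they were chosen after these windows were seen. The stretches of H2-Q4, H2-Q6 and H2-Q7 are near-copies of each other, so their matches to either motif are not separate occurrences. The ISRE core was in the windows of H2-T22, where it overlaps GTTTCACTT, of H2-T23 and of Mr1, and in 10.6% of all promoters. A GAS element (TTCNNNGAA), an interferon-response motif, was in the H2-M3 window and in 8.3% of promoters. All motifs were searched on both strands. CpG dinucleotides, the substrate of DNMT1, numbered 9 in the H2-Q4 window, 11 in H2-Q6, 12 in H2-Q7, 8 in H2-T22, 5 in H2-T23, 9 in H2-M3 and 1 in Mr1, against a median of 7 over all promoters. At least as many CpG as in H2-Q7 were held by 39.6% of all promoters, as in H2-Q6 by 41.4% and as in H2-Q4 by 45.8%. None of these windows is therefore unusual in its number of CpG, while 94.6% of promoters held at least as many as Mr1. These matches describe letters in a reference genome and not bound sites.

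**Figure D1:**
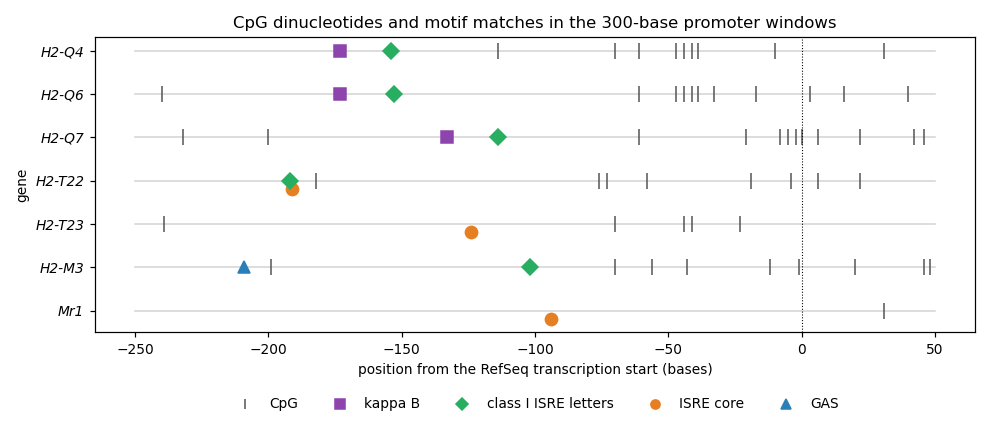
Positions of CpG dinucleotides (ticks) and motif matches (symbols) in the 7 promoter windows, with the distance from the RefSeq transcription start in bases on the x axis and 1 gene per line. A κB match (square) stands just upstream of a GTTTCACTT match (diamond) in the 3 Qa-region genes, and Mr1 holds 1 CpG against 12 in H2-Q7.

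The libraries held 17362546 to 33500030 counts (median 20859668), and all 10 genes passed the filter on low counts, with 19 counts as the lowest value of any of them in a library. Values below are CPM (each gene's count relative to the total of its library), scaled with TMM factors and given in the order of replicates 1 to 4. Dnmt1 was at 5.11 to 17.3 CPM in the si-dnmt libraries and at 86.5 to 211 CPM in the si-control libraries, with no overlap in any cytokine state. All 12 endothelial markers were detected, at a summed 3810 to 10100 CPM, while Cd3e and Nkg7 had 0 counts in every library and Ptprc (CD45) at most 3. The leukocyte markers summed to 67.7 to 232 CPM, from the 3 of 10 that passed the filter (Cd68, Csf1r and Lyz2), and the epithelial markers to 3.65 to 22.7 CPM, with Sftpc at 0. The summed endothelial markers were 3810 to 6160 CPM in the groups with TNF and 5670 to 10100 CPM in the others. The mural markers summed to 7.69 to 69.4 CPM in si-control groups and 39.3 to 230 CPM in si-dnmt groups, chiefly from Acta2, with Rgs5 at 1 count at most, and the fibroblast markers to 7.87 to 55.9 CPM with TNF and 1.51 to 7.13 CPM without. The part of these shifts in the results below was not tested, and in bulk RNA fewer cells of a type and less RNA per cell cannot be told apart.

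Replicates 1 and 2 stood apart from replicates 3 and 4 in many of the 10 genes. H2-Q4, H2-Q7 and Cd1d1 had both of replicates 1 and 2 above both of replicates 3 and 4 in 8 of 8 groups, and H2-Q6, H2-T22, H2-T23 and H2-M3 in 7 of 8. H2-T10 did so in 3 of 8 groups and Mr1 in 2 of 8. The share of all genes with this order was not computed, so whether these genes differ from others was not tested. The ratio of the means of the 2 sets reached 5.12 for H2-Q6 and 3.79 for H2-Q7. H2-T24 went the other way, with a ratio of 0.594 to 0.904 over the groups. The sources do not say what separates the sets. Results are therefore also given from a fit with the replicate number as a block and from each set alone.

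**Figure D2:**
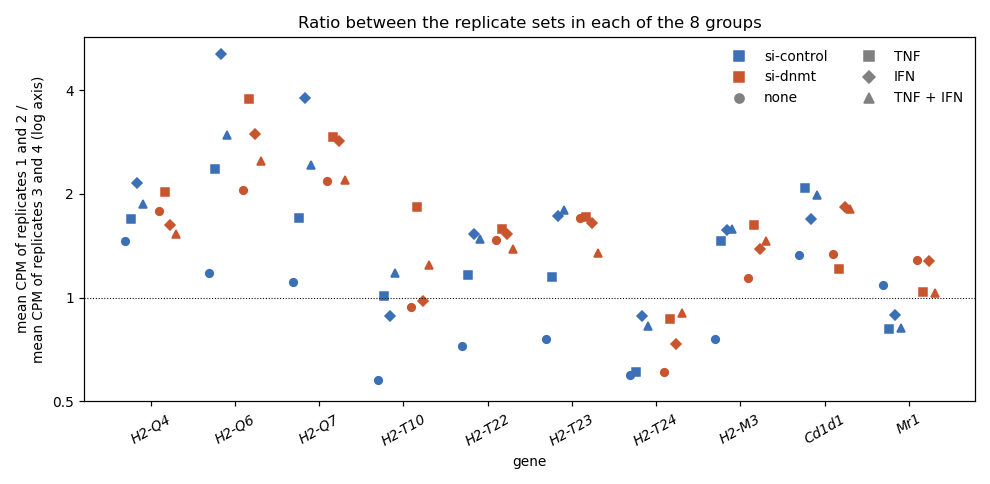
Mean CPM of replicates 1 and 2 divided by that of replicates 3 and 4 (log axis) for each gene, with 1 symbol per group. The ratio lies above 1 in every group for H2-Q4, H2-Q6, H2-Q7 and Cd1d1 and below 1 in every group for H2-T24.

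Several of the genes are near-identical copies, so their counts can hold reads of each other. Of the 50-base words in their GENCODE M21 transcripts, 53.5% for H2-T22 and 50.4% for H2-T10 also occur in transcripts of another gene, chiefly of each other and of the transcripts A930015D03Rik and BC023719 that overlap them on the opposite strand. The share was 36.4% for H2-Q4, 35.0% for H2-Q6, 26.5% for H2-Q7, 19.1% for Cd1d1 (all with Cd1d2) and 14.5% for H2-T23. It was 3.17% for H2-T24, 0.576% for H2-M3 and 0 for Mr1. Among other genes, H2-Q6 shared words with H2-Q5 (5.99% of its words) and with the classical gene H2-D1 (5.45%). H2-Q7 shared words with H2-Q10 (14%), H2-Q5 (8.74%) and the classical gene H2-K1 (2.82%). H2-Q4 is overlapped by Gm11131 on the opposite strand. The sources used here do not give how the counting treated reads with several matches or whether it used strand, so values of the Q genes and of H2-T10 and H2-T22 are uncertain as single genes. The sums H2-Q4 + H2-Q6 + H2-Q7 and H2-T10 + H2-T22 are given where they change a call. These sums do not cover H2-K1, H2-D1, H2-Q5 or H2-Q10, and the part of their reads in the Q gene values was not tested.

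Levels of different genes were set side by side per length. In si-control cells without cytokine, per kilobase of exon (GENCODE M21 lengths), H2-T22 (18.3 ± 4.08 CPM per kb, SD, n = 4), H2-Q4 (15.1 ± 4.20) and H2-T23 (10.3 ± 2.73) headed the levels, and each of these overlapped the next in range. H2-M3 and Mr1 followed at 5.95 ± 1.21 and 4.52 ± 0.620 CPM per kb, with overlapping ranges. Below them stood Cd1d1 at 2.74 ± 0.462 and H2-T24 at 2.15 ± 0.695 CPM per kb, which overlapped, and then H2-Q6, H2-Q7 and H2-T10 at 0.684 ± 0.181, 0.604 ± 0.0434 and 0.455 ± 0.157. H2-Q6 moved furthest in this order. It was eighth of the 10 at baseline and first under TNF + IFN, at 302 ± 174 CPM per kb in si-control and 367 ± 181 in si-dnmt, in both siRNAs overlapping H2-Q4 (280 ± 99.0 and 275 ± 66.4). At the other end, Cd1d1 was last with TNF, IFN and TNF + IFN in both siRNAs, at 1.14 ± 0.476 to 2.30 ± 0.820 CPM per kb. Its range overlapped that of the next gene in si-control + TNF, si-dnmt + TNF and si-dnmt + IFN.

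**Figure D3:**
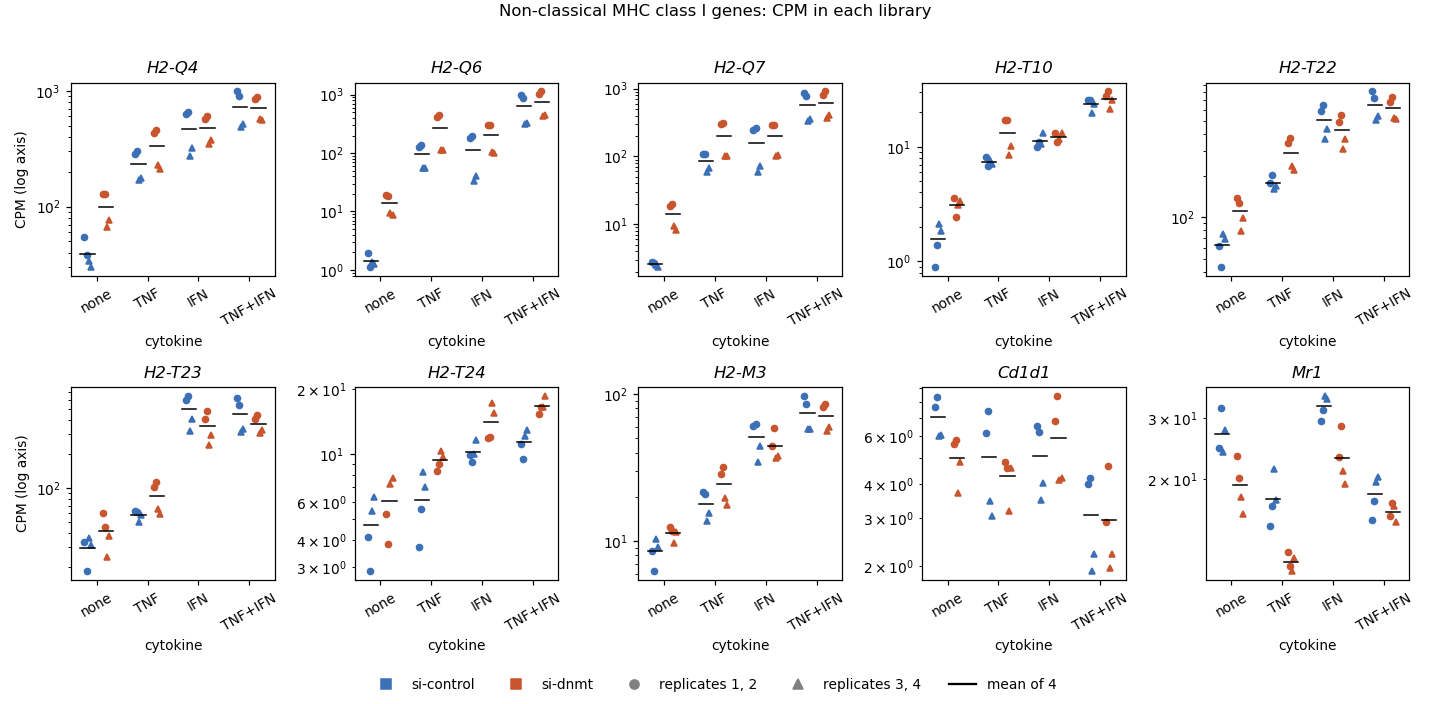
CPM of the 10 genes in each of the 32 libraries (log axis) by cytokine state, blue for si-control and orange for si-dnmt, circles for replicates 1 and 2, triangles for replicates 3 and 4, and a line at the mean of 4. H2-Q6 and H2-Q7 lie near 1 to 3 CPM in si-control without cytokine and at 310 to 1137 CPM under TNF + IFN, while Mr1 stays between 10.8 and 34.8 CPM.

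Whether loss of Dnmt1 alone changes these genes was asked first. Without cytokine, 6 of the 10 genes were called, 5 higher and 1 lower with si-dnmt, against 9.58% of 15254 genes called higher and 8.88% called lower. The 5 were the 3 Qa-region genes and the pair H2-T10 and H2-T22, and the 1 was Mr1. The median log2 fold change of the 10 genes was 0.66, against -0.00 over all genes tested. With the replicate block, 7 were called against 32.4% of all genes, the addition being Cd1d1 (log2 fold change -0.50, adjusted p = 0.0106).

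H2-Q6, which encodes a Qa-2 chain, was at 1.97, 1.11, 1.36 and 1.26 CPM in si-control and 19.0, 18.4, 9.38 and 8.86 CPM in si-dnmt. Every si-dnmt library was above every si-control library, and the gene rose 9.67-fold (log2 fold change 3.27 ± 0.71 SE, adjusted p = 0.00144). H2-Q7, the other Qa-2 gene, went from 2.77, 2.65, 2.55 and 2.33 to 18.3, 20.1, 9.52 and 8.13 CPM, again without overlap. It rose 5.43-fold (log2 fold change 2.44 ± 0.56, adjusted p = 0.00258). H2-Q4 was already present, at 54.7, 38.5, 33.6 and 30 CPM, and was at 128, 129, 67.2 and 76.2 CPM with si-dnmt, a rise of 2.55-fold (log2 fold change 1.35 ± 0.33, adjusted p = 0.00432). Within replicates 1 and 2 the log2 fold changes of H2-Q6, H2-Q7 and H2-Q4 were 3.58, 2.83 and 1.47, and within replicates 3 and 4 they were 2.79, 1.85 and 1.17, all called. The 3 genes summed changed by 1.57 (adjusted p = 0.0104).

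Of the pair H2-T22 and H2-T10, H2-T22 was at 61.8, 43.4, 75.2 and 69.9 CPM in si-control and 136, 126, 79.5 and 98.9 in si-dnmt. The groups did not overlap, though replicate 3 of si-dnmt lay just above replicate 3 of si-control, and the gene rose 1.76-fold (log2 fold change 0.81 ± 0.22, adjusted p = 0.0106). The difference was 1.32 within replicates 1 and 2 and 0.30 within replicates 3 and 4, both called. H2-T10 rose from 0.891, 1.38, 2.11 and 1.84 to 3.60, 2.44, 3.11 and 3.34 CPM, a log2 fold change of 1.00 ± 0.22 (adjusted p = 0.00192). Each set alone also called it, at 1.43 and 0.70. Summing the pair left the change at 0.82 (adjusted p = 0.00898).

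The Qa-1 gene H2-T23 was at 33.2, 18.4, 36.2 and 31.8 CPM in si-control and 60.8, 45.6, 24.9 and 37.6 CPM in si-dnmt. The groups overlapped and the gene was not called (log2 fold change 0.50 ± 0.28, adjusted p = 0.246). Its 2 replicate sets went opposite ways, at 1.04 (adjusted p = 0.000157) in replicates 1 and 2 and -0.12 (adjusted p = 0.557) in replicates 3 and 4. H2-M3 (0.40 ± 0.23) and H2-T24 (0.36 ± 0.22) were not called either. Replicates 1 and 2 alone called H2-M3 (0.71, adjusted p = 0.00183), with a change of 0.11 (adjusted p = 0.545) in the other set.

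The genes for lipid and metabolite presentation lay on the other side of 0. Mr1 was at 24.5, 32.02, 24.0 and 27.7 CPM in si-control and 23.3, 20.1, 17.7 and 15.8 CPM in si-dnmt. All si-dnmt libraries were below all si-control libraries, and Mr1 fell by 0.49 on the log2 scale (SE 0.13, adjusted p = 0.00762). This call was lost in replicates 1 and 2 alone (-0.37, adjusted p = 0.0512) and when only the 2 groups were fitted (-0.49, adjusted p = 0.0531). Cd1d1 was at 7.69, 8.38, 6.02 and 6.05 CPM against 5.61, 5.82, 3.72 and 4.83 CPM with si-dnmt. The 4 si-dnmt values were all lower, but the difference was not called without the block (log2 fold change -0.50 ± 0.30, adjusted p = 0.281).

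**Figure D4:**
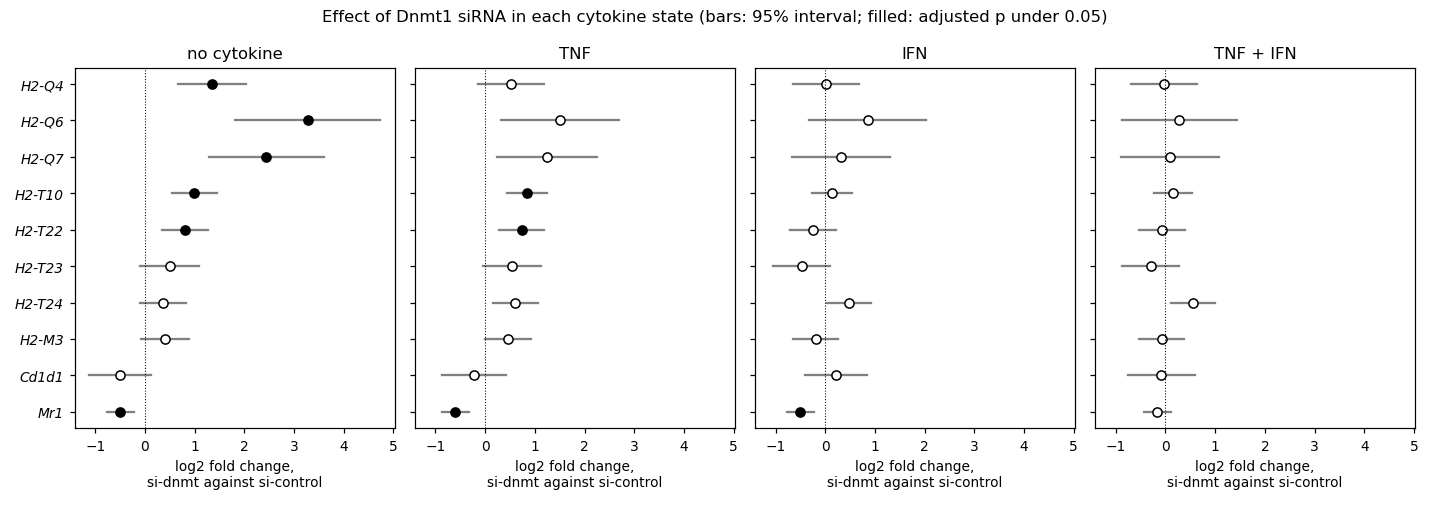
Log2 fold change of si-dnmt against si-control for the 10 genes in each cytokine state, with 95% intervals as bars and filled points for genes called at an adjusted p under 0.05. Filled points number 6 without cytokine, 3 with TNF, 1 with IFN and 0 with TNF + IFN.

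In the presence of TNF, 3 genes were called, 2 higher (10.4% of all genes) and 1 lower (9.59%), with a median log2 fold change of 0.57 over the 10 genes against 0.00 over all. H2-T10 rose by 0.83 ± 0.20 (adjusted p = 0.00277), from 8.17, 6.80, 7.70 and 7.06 CPM to 17.1, 17.2, 8.53 and 10.2 CPM. Within replicates 3 and 4 its change was 0.34 and was not called (adjusted p = 0.104). H2-T22 rose by 0.73 ± 0.22 (adjusted p = 0.0192), from 177, 202, 159 and 168 CPM to 346, 371, 236 and 219 CPM, and the libraries did not overlap. When si-control + TNF replicate 3, or si-dnmt + TNF replicate 1 or 2, was left out the call was lost, at log2 fold changes of 0.60 to 0.69. Mr1 fell by 0.60 (SE 0.13, adjusted p = 0.00148), from 14.7, 16.7, 21.3 and 17.3 CPM to 12.3, 11.2, 10.8 and 11.8 CPM.

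The Qa-region genes under TNF depended on how the replicate sets were treated. H2-Q6 was at 129, 138, 56.5 and 56.4 CPM in si-control + TNF and 408, 449, 115 and 112 CPM in si-dnmt + TNF. Each replicate was higher with si-dnmt than its namesake, while the groups overlapped because replicates 3 and 4 of si-dnmt lay below replicates 1 and 2 of si-control. The log2 difference was 1.51 ± 0.58 (adjusted p = 0.0639) without a block and 1.35 (adjusted p = 1.81e-06) with it. For H2-Q7 these values were 1.24 ± 0.49 (adjusted p = 0.0732) and 1.08 (adjusted p = 1.4e-05), and for H2-Q4 they were 0.52 ± 0.32 (adjusted p = 0.287) and 0.48 (adjusted p = 0.000496). With the block 9 of the 10 genes were called under TNF, 8 of them higher, against 33.4% of all genes in either direction. The further 3 were H2-T24 (0.63, adjusted p = 0.00153), H2-M3 (0.45, adjusted p = 0.0235) and H2-T23 (0.50, adjusted p = 0.046). Without si-dnmt + TNF replicate 3 or 4, H2-Q6 was called also without the block, at 1.77.

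Under IFN 1 of the 10 genes was called between the siRNAs. By edgeR and by DESeq2 1 gene was called, by edgeR 0 higher (10.8% of all genes, with 1 gene, H2-T24, higher at an unadjusted p under 0.05) and 1 lower (9.54%), again Mr1, which fell by 0.50 (SE 0.13, adjusted p = 0.00621) from 29.4, 31.7, 34.8 and 34.0 CPM to 23.1, 28.4, 21.02 and 19.3 CPM. Within replicates 1 and 2 the difference of Mr1 was -0.26 and was not called (adjusted p = 0.176), and within replicates 3 and 4 it was -0.78. The Qa-1 gene H2-T23 was lower in mean with si-dnmt, 355 against 494 CPM (log2 fold change -0.48 ± 0.28, adjusted p = 0.243), and each set alone called it, at -0.52 and -0.43. H2-Q6 was at 183, 193, 33.2 and 40.2 CPM in si-control + IFN and 301, 308, 104 and 100 CPM in si-dnmt + IFN (log2 fold change 0.85 ± 0.57, adjusted p = 0.314). With the block, 3 genes were called (34.5% of all genes), H2-Q6 at 1.02 (adjusted p = 8.75e-05), H2-T24 at 0.46 (adjusted p = 0.0134) and Mr1.

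Under TNF + IFN none of the 10 genes was called by edgeR, 0 higher against 8.97% of all genes and 0 lower against 8.72%, with 1 gene, H2-T24, at an unadjusted p under 0.05 (log2 fold change 0.55 ± 0.21, adjusted p = 0.0775). DESeq2 called 1 gene. H2-T24 was at 11.1, 9.48, 12.1 and 12.9 CPM in si-control and 15.3, 16.4, 16.5 and 18.6 CPM in si-dnmt, without overlap, and with the block it was the 1 gene called (0.56, adjusted p = 0.00343, 30.8% of all genes). H2-Q6 was at 999, 880, 310 and 325 CPM in si-control and 1043, 1137, 435 and 442 CPM in si-dnmt. Its log2 difference had a 95% interval of -0.88 to 1.44, that of H2-Q7 of -0.90 to 1.07 and that of H2-Q4 of -0.69 to 0.64, so the changes of the same 3 genes without cytokine lay above these intervals. The median over the 10 genes was -0.05, against 0.00 over all genes.

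How the cytokines acted on these genes was compared next, within each siRNA against the cultures without cytokine. The 3 comparisons of a siRNA share their 4 control libraries. In si-control cells TNF raised 7 genes and lowered 1 (16.1% and 14.6% of all genes), IFN raised 8 and lowered 0 (8.56% and 5.92%), and TNF + IFN raised 8 and lowered 2 (23.5% and 21.6%). In si-dnmt cells TNF raised 8 and lowered 1 (11.5% and 9.54%), IFN raised 8 and lowered 0 (6.66% and 2.35%), and TNF + IFN raised 8 and lowered 0 (21.3% and 18.9%). The median log2 fold changes of the 10 genes were 1.28, 2.93 and 3.64 in si-control and 1.26, 1.97 and 2.74 in si-dnmt, in the order TNF, IFN, TNF + IFN, with medians over all genes between -0.01 and 0.01.

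The Qa-2 genes H2-Q6 and H2-Q7 responded most. In si-control cells H2-Q6 rose 66.3-fold with TNF, 78.3-fold with IFN and 438-fold with TNF + IFN (log2 fold changes 6.05 ± 0.75, 6.29 ± 0.76 and 8.78 ± 0.82), reaching the 310 to 999 CPM given above. H2-Q7 was at 107, 110, 59.1 and 68.4 CPM with TNF, at 244, 261, 59.9 and 73.3 CPM with IFN and at 875, 776, 328 and 351 CPM with both, log2 fold changes of 5.06 ± 0.60, 5.95 ± 0.62 and 7.82 ± 0.66. All of these libraries were above all libraries without cytokine, and the set of replicates 1 and 2 was the higher in each group. In si-dnmt cells, which started from a higher level, the log2 fold changes of H2-Q6 were 4.29 ± 0.65, 3.87 ± 0.64 and 5.78 ± 0.70, and those of H2-Q7 were 3.86 ± 0.54, 3.83 ± 0.54 and 5.47 ± 0.58. H2-Q7 was then at 298, 307, 103 and 103 CPM with TNF, at 296, 294, 101 and 106 with IFN and at 792, 909, 371 and 407 with both.

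H2-Q4 rose with each cytokine from its higher start. In si-control it was at 284, 301, 170 and 177 CPM with TNF, at 630, 650, 276 and 320 with IFN and at 986, 906, 491 and 519 with both (log2 fold changes 2.57 ± 0.34, 3.58 ± 0.36 and 4.21 ± 0.37). In si-dnmt it was at 432, 461, 230 and 210 CPM with TNF, at 565, 610, 348 and 375 with IFN and at 847, 880, 572 and 560 with both (1.74 ± 0.33, 2.25 ± 0.34 and 2.84 ± 0.35). All 6 comparisons were called, with no overlap of libraries.

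The T-region genes differed in how much TNF did. H2-T23, the Qa-1 gene, was at 63.0, 61.2, 50.6 and 57.5 CPM in si-control + TNF, 1.94-fold above baseline (log2 fold change 0.96 ± 0.29, adjusted p = 0.0112). With IFN it was at 601, 652, 321 and 403 CPM, 16.5-fold above baseline (4.05 ± 0.32), and with TNF + IFN at 619, 542, 314 and 329 CPM (3.92 ± 0.32). The TNF call was lost without si-control replicate 2 (0.78), and in si-dnmt, where the change was 1.01 ± 0.28 (adjusted p = 0.0116), without si-dnmt + TNF replicate 2 (0.84). H2-T22 rose 2.81-fold with TNF, 8.13-fold with IFN and 10.3-fold with both in si-control, and 2.66-fold, 3.89-fold and 5.58-fold in si-dnmt. H2-T10 rose 4.75-fold, 7.16-fold and 15.1-fold in si-control, to 19.6 to 25.8 CPM with both cytokines, and 4.24-fold, 3.93-fold and 8.40-fold in si-dnmt.

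H2-T24 had the smallest of the rises, 2.16-fold with IFN and 2.42-fold with TNF + IFN in si-control and 2.33-fold and 2.75-fold in si-dnmt. With TNF it was called in si-dnmt (log2 fold change 0.62 ± 0.22, adjusted p = 0.0419) but not in si-control (0.38 ± 0.22, adjusted p = 0.206), where the block called it (0.38, adjusted p = 0.0472). The si-dnmt call was lost in 12 of the 32 fits that left out 1 library, at 0.46 to 0.67, and without the filter on low counts (0.61, adjusted p = 0.0811). H2-M3, which presents formylated peptides, rose in all 6 comparisons, 2.09-fold, 5.92-fold and 8.73-fold in si-control and 2.17-fold, 3.93-fold and 6.26-fold in si-dnmt. It went from 8.54, 6.20, 10.3 and 9.15 CPM to 97.8, 85.4, 57.7 and 58.4 CPM with both cytokines in si-control.

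No rise of Mr1 or Cd1d1 was called under any cytokine in the fit of all libraries, with or without the block. Mr1 fell by 0.63 with TNF (SE 0.13, adjusted p = 0.000491) and by 0.58 with TNF + IFN (SE 0.13, adjusted p = 0.000565) in si-control, to 15.2, 17.2, 19.6 and 20.2 CPM in the latter. With IFN it was 0.26 ± 0.13 above baseline and was not called (adjusted p = 0.196), while replicates 3 and 4 alone called it higher (0.41, adjusted p = 0.0118), with 0.14 (adjusted p = 0.495) in the other set. In si-dnmt it fell by 0.74 with TNF (SE 0.13, adjusted p = 0.000149), and the change with TNF + IFN was -0.26 ± 0.13 (adjusted p = 0.123). Cd1d1 fell by 1.18 with TNF + IFN in si-control (SE 0.31, adjusted p = 0.00294), from 7.69, 8.38, 6.02 and 6.05 CPM to 3.99, 4.22, 1.91 and 2.22 CPM, without overlap. In si-dnmt the change was -0.77 ± 0.32 (adjusted p = 0.0546), which the block called (-0.81, adjusted p = 0.000129). The block also called the changes of Cd1d1 in si-control with TNF (-0.54, adjusted p = 0.0041) and with IFN (-0.51, adjusted p = 0.0137), against -0.49 ± 0.30 and -0.47 ± 0.31 without it.

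**Figure D5:**
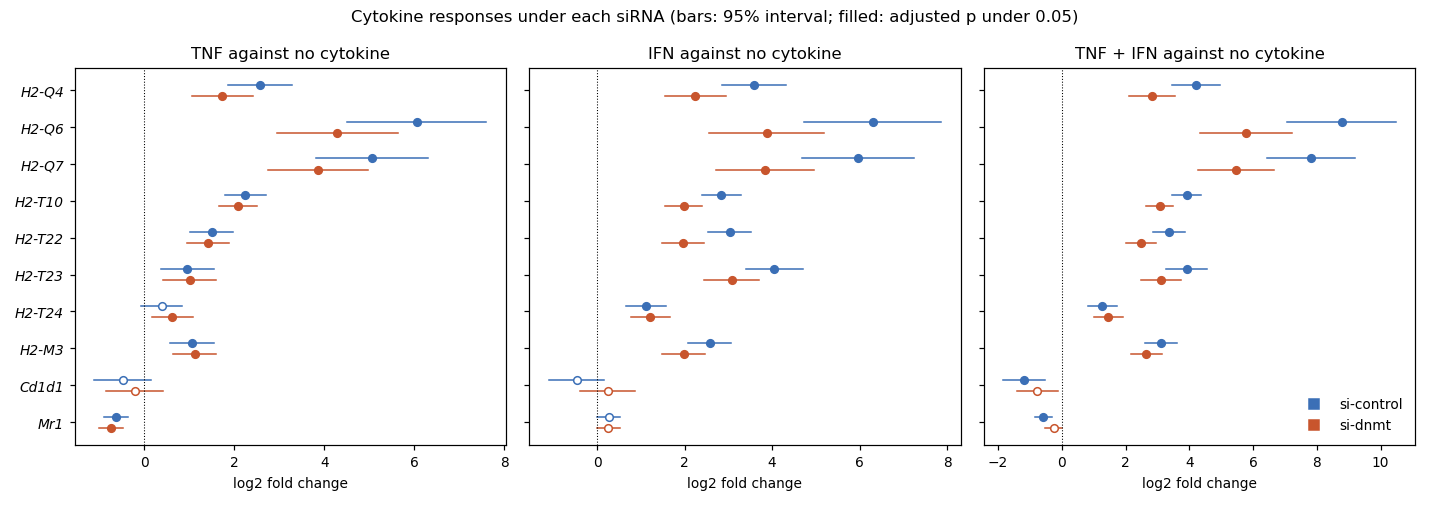
Log2 fold change of each cytokine state against no cytokine for the 10 genes, blue for si-control and orange for si-dnmt, with 95% intervals as bars and filled points for genes called at an adjusted p under 0.05. Among the points of the same siRNA, H2-Q6 and H2-Q7 lie furthest to the right in each panel, and no point of Cd1d1 or Mr1 to the right of 0 is filled.

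Whether the responses differed between the siRNAs was tested by the interaction terms. None of the 10 genes was called by edgeR for TNF (0.0328% of all genes), IFN (0.0459%) or TNF + IFN (0.531%), and DESeq2 called 0, 0 and 2. At an unadjusted p under 0.05 stood 0, 6 and 5 genes, all in the direction of a smaller response with si-dnmt. Percentages here and elsewhere are of genes called at an adjusted p under 0.05. The share of all genes at an unadjusted p under 0.05 is not given, so the 2 cannot be compared. The estimates for H2-Q6 were -1.76 ± 0.90, -2.42 ± 0.90 and -2.99 ± 0.90 in the order TNF, IFN, TNF + IFN, and those for H2-Q7 were -1.20 ± 0.73, -2.12 ± 0.73 and -2.35 ± 0.73. With the replicate block, 3 genes were called for TNF (0.892% of all genes), 4 for IFN (0.387%) and 4 for TNF + IFN (4.18%), all lower. H2-Q4, H2-Q6 and H2-Q7 were among them each time, with blocked H2-Q6 estimates of -1.92 (adjusted p = 0.00462), -2.25 (adjusted p = 0.000245) and -2.93 (adjusted p = 3.21e-06). H2-T22 joined them for IFN (-0.99, with an adjusted p of 0.0339) and for both cytokines (-0.80, adjusted p = 0.0347). Each replicate set alone called H2-Q4, H2-Q6 and H2-Q7 in all 3 interactions. These terms share the 8 libraries without cytokine, in which the 3 genes were higher with si-dnmt, and the blocked H2-Q4 estimates were -0.83, -1.24 and -1.29 and those of H2-Q7 -1.28, -1.96 and -2.24.

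The TNF-by-IFN interaction compares the log2 change under both cytokines with the sum of the single changes. In si-control 4 genes were called, all below that sum (1.06% of all genes called either way): H2-Q4 at -1.94 ± 0.46 (adjusted p = 0.0295), H2-Q6 at -3.57 ± 0.90 (adjusted p = 0.0438), H2-Q7 at -3.19 ± 0.73 (adjusted p = 0.0215) and H2-T10 at -1.17 ± 0.29 (adjusted p = 0.0383). On the linear scale the mean of H2-Q6 under both, 629 CPM, was nonetheless above the means under TNF (95.1 CPM) and IFN (112 CPM) added together. The mean of H2-Q7 under both, 583 CPM, was likewise above its means under TNF (86.0 CPM) and IFN (160 CPM) added together. The same held for the means of H2-T10 and, by little, of H2-Q4. A log2 estimate below the sum thus does not mean less than an additive rise in CPM. Summing the 3 Qa-region genes and the T10 and T22 pair left 0 calls (-1.87, adjusted p = 0.162, and -1.16, adjusted p = 0.0696), and leaving out single libraries gave 0 to 4 calls. With the block 6 genes were called (4.23% of all genes), with H2-T22 at -1.10 (adjusted p = 0.00268) and H2-T23 at -1.04 (adjusted p = 0.0247) added. In si-dnmt 0 genes were called by edgeR (0.354% of all genes) and 0 by DESeq2. An unadjusted p under 0.05, for which no share of all genes is given, was found for 6. The block called 5 (1.82%), all lower. They were H2-Q4 (-1.11), H2-Q6 (-2.12), H2-Q7 (-2.06), H2-T10 (-0.98) and H2-T22 (-0.87).

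Genes that load and carry class I molecules were compared as a list. Of 14 partners of surface display, 9 were called higher (9.58% of all genes) and 0 lower with si-dnmt without cytokine (median log2 fold change 0.44), against 5 with TNF (10.4%; Tap1, Tap2, Tapbpl, Calr and Psmb9) and 1 with IFN (10.8%; Calr), while the median with TNF + IFN was -0.04. Psmb9, an immunoproteasome subunit, changed most in the first of these (1.498 ± 0.199, adjusted p = 4.3e-06), followed by Tap1, a subunit of the peptide transporter (1.13 ± 0.19, adjusted p = 8.41e-05), Psmb8 (1.03 ± 0.26) and Tapbpl (0.63 ± 0.15). B2m, the light chain, was at 1226, 1260, 888 and 918 CPM in si-control and 1844, 1806, 1033 and 1015 CPM in si-dnmt, and each si-dnmt library was above its namesake. It was not called without the block (0.41 ± 0.23, adjusted p = 0.232) and was called with it (0.37, adjusted p = 0.00165). Under IFN B2m was lower with si-dnmt, called only with the block (-0.43, adjusted p = 0.000434). With TNF, IFN and TNF + IFN in si-control, 12, 13 and 14 of the 14 were called higher and 0 lower, against 16.1%, 8.56% and 23.5% of all genes called higher.

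Of 11 transcription factors of class I genes, 6 were called higher and 1 lower with si-dnmt without cytokine (median 0.31), against 9.58% and 8.88% of all genes. Those called higher under TNF (Nlrc5, 0.72 ± 0.24), IFN (Nfkb1 and Rela) and TNF + IFN (Nfkb1) were 1 or 2 of 11, near the 10.4%, 10.8% and 8.97% of all genes. Nlrc5, the class I coactivator, went from 24.4, 18.5, 20.1 and 20.6 CPM to 62.8, 75.3, 36.9 and 44.6 CPM (1.39 ± 0.24, adjusted p = 0.000146). Stat2 (0.72 ± 0.155) was also higher, and Rfxap, a subunit of the RFX complex, was the 1 lower, here (-0.75 ± 0.17) and in the other 3 states (-0.65 to -0.81). In si-control, Nlrc5 rose by 1.73 ± 0.24 with TNF, 3.60 ± 0.26 with IFN and 4.11 ± 0.27 with both. The classical class I gene H2-K1 was at 317, 232, 207 and 188 CPM in si-control and 717, 634, 321 and 354 CPM in si-dnmt (1.10 ± 0.34, adjusted p = 0.0222), while H2-D1 was not called without the block (0.54 ± 0.24, adjusted p = 0.127) and was called with it (0.49, adjusted p = 0.00259).

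Among other class I and class I-like genes, 13 of the 22 in the tables passed the filter, 2 were called higher and 0 lower with si-dnmt without cytokine, and 2 higher and 1 lower with TNF + IFN. These shares are near those of all genes (9.58% higher without cytokine, 8.97% higher and 8.72% lower with TNF + IFN), so the counts are not a result about the list. The first 2 were H2-Q5, a further Qa-region gene (0.531 against 3.32 CPM in mean, log2 fold change 2.60 ± 0.45), and H2-Q10 (0.227 against 0.663 CPM, 1.499 ± 0.306). Both were low, with as few as 5 and 2 counts in a si-control library. Both share sequence with H2-Q7, and H2-Q5 also with H2-Q6. Under TNF + IFN the NKG2D ligand gene Ulbp1 rose (0.84 ± 0.245), as did Procr (0.39 ± 0.13), and the NKG2D ligand gene Raet1d fell (-0.60 ± 0.21). Of 8 genes of lipid loading and traffic of CD1d, 1 was called higher without cytokine, Mttp, and 1 lower, Ap3b1 (-0.25 ± 0.07), which is near the 9.58% and 8.88% of all genes and no result about the list. Mttp, which loads lipid on CD1d, rose by 1.30 ± 0.25 (adjusted p = 0.000541), from 1.88, 2.65, 5.27 and 4.71 CPM to 5.65, 6.29, 12.5 and 11.3 CPM, while Cd1d1 itself was lower in mean, as given above. Under TNF + IFN Mttp rose by 1.01 ± 0.24.

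As a description over the 32 libraries, which share the groups and replicate sets above, the gene whose log2 CPM was most like that of H2-Q4 was H2-K1 (Pearson r = 0.995), and for both H2-Q6 (0.994) and H2-Q7 (0.989) it was H2-Q5. For H2-T22 it was Tap1 (0.989), then Tap2 and H2-D1, and for H2-M3 it was H2-D1 (0.984), then Tap2 and Cd274. H2-T23 was most like F830016B08Rik (0.988), Iigp1 and Mpeg1, and H2-T10 most like H2-Q10 (0.969), AW112010 and Ube2l6. The next genes for H2-Q4 were Parp14 and Parp9, and for H2-Q6 and H2-Q7 Parp12 and Parp14. H2-T24 was less close to any gene (Insl6 0.940, B3galt1, H2-Q1). Cd1d1 was most like the endothelial genes Esam (0.911), Col23a1 and Thsd1, and Mr1 most like Sh3bp5 (0.906), Notch1 and Ctnna1. Between the 10 genes themselves r was 0.993 for H2-Q6 and H2-Q7, 0.776 for H2-Q6 and H2-T23, and -0.444 for H2-Q6 and Mr1.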

How the data were processed

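RNA of 32 libraries (8 groups of 4) was sequenced in bulk. The authors deposited raw counts per gene from featureCounts, per the labels made from reads trimmed with cutadapt 4.9, with no normalization. The aligner, genome build, annotation and strand setting have no entry in the sources used here. Genes were kept by filterByExpr at a minimum count of 10 (15254 genes, at least 99.91% of each library's counts), scaled by TMM, and fitted over all 32 libraries with 8 group means in edgeR 4.0.16 (R 4.3.3). Each of 15 contrasts was tested two-sided with edgeR's quasi-likelihood F test, adjusted over all genes by Benjamini-Hochberg, and called at an adjusted p under 0.05. The SE of a log2 fold change is its size divided by the root of F. P-values set a difference between groups against the spread between libraries. Without the block this spread includes the difference between the replicate sets. Likeness used log2 CPM with a prior count of 2. The numbers of the labels were taken to pair the libraries. Deviations from group means correlated at 0.299 to 0.617 in all 40 same-numbered pairs, but the closest library bore the same number in only 16 of 40. The closest library always lay in the same replicate set. The difference between the sets enters these correlations, so they cannot show that single numbers pair. DESeq2 1.42.0, the block, each replicate set, single libraries left out, other scaling, no filter, the groups of a contrast alone and summed paralogs were alternatives. The 10 genes, the gene lists and the tests were chosen with earlier results of these data known. Of the lists, B2m, Tap1, Nlrc5, H2-K1, H2-D1 and at most 4 genes a list called with si-dnmt without cytokine or with TNF + IFN are named, by size, and some of these are not reported here. The test was checked on simulated data that held no difference between replicate sets, so the check does not cover that feature of these data.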

Additional observations from a re-analysis of the deposited data

Results flagged for a closer look

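In 1 of 80 sets of 4 replicates (10 genes in 8 groups) a library stood far from the other 3 by Dixon's criterion, which chance alone meets in about 1 of 20. It was Cd1d1 in si-dnmt + TNF replicate 3, at 3.18 CPM against 4.58 to 4.81 CPM in the other 3.

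The response to 1 cytokine differed with the presence of the other in si-control cells for 4 genes, by the TNF-by-IFN interaction of edgeR (two-sided, adjusted over all genes). The log2 estimates were -1.94 for H2-Q4, -3.57 for H2-Q6, -3.19 for H2-Q7 and -1.17 for H2-T10. Leaving out a single library ended the call in 9, 13, 5 and 12 of 32 fits in that order.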

How the results depend on the processing

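Of the siRNA contrasts, the number of the 10 genes called without cytokine, with IFN and with TNF + IFN was 6, 1 and 0 in every fit that left out 1 library, and with TNF it was 2 to 4. The replicate numbers were also used as a block, which added calls and ended none. It gave 9 calls with TNF (3 without it), 3 with IFN (1), 1 with TNF + IFN (0), 3, 4 and 4 for the siRNA by TNF, IFN and TNF + IFN interactions (0 each) and 5 for the TNF-by-IFN interaction in si-dnmt (0), and apart from the calls given beside the results it changed no other call of the 10 genes. DESeq2 gave 6 with TNF, 1 with TNF + IFN and 2 for siRNA by TNF + IFN. Replicates 1 and 2 alone gave 10, 2 and 2 calls with TNF, IFN and TNF + IFN, 3, 7 and 7 for the siRNA interactions and 7 and 6 for the TNF-by-IFN interaction in si-control and si-dnmt. Replicates 3 and 4 alone gave 7, 6 and 3, then 3, 3 and 3, and 5 in si-dnmt. Fitting only the groups of a contrast gave 1 with TNF + IFN and 1 for the TNF-by-IFN interaction in si-control, and summing paralogs gave 0 for the latter. Without single libraries that interaction had 0 to 4 calls in si-control and 0 to 1 in si-dnmt, the 1 being H2-T10 without si-dnmt + TNF replicate 3. The shares of all genes called by DESeq2, in each replicate set alone and in the groups of a contrast alone are not given here. Counts from these fits are therefore no result about the 10 genes as against other genes. The cause of these shifts was not tested.

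The sign of some differences that were not called turned. In replicates 3 and 4 alone, H2-T23 without cytokine was at -0.12, Cd1d1 with TNF at 0.24 and with TNF + IFN at 0.017, H2-Q4 with TNF + IFN at 0.16, and Cd1d1 under IFN against no cytokine in si-dnmt at -0.031. In replicates 1 and 2 alone, H2-Q4 with IFN was at -0.14 and Mr1 with TNF + IFN at 0.0061. The sum of H2-T10 and H2-T22 was at -0.24 with IFN and -0.061 with TNF + IFN, where H2-T10 itself was above 0 and the far more abundant H2-T22 below, and the sum of the 3 Qa-region genes was at 0.12 with TNF + IFN, where H2-Q4 itself was at -0.02 and with the block at 0.0196. Leaving out single libraries moved Cd1d1 from -0.40 to 0.021 with TNF, from -0.0085 to 0.36 with IFN and from -0.40 to 0.11 with TNF + IFN, and H2-Q4 from -0.17 to 0.21 with IFN and from -0.17 to 0.16 with TNF + IFN. With TNF + IFN it moved H2-Q7 from -0.16 to 0.35, H2-T22 from -0.18 to 0.058 and H2-M3 from -0.18 to 0.073. Counting error is part of the spread where counts are low, as in libraries with 19 counts of H2-T10, 21 of H2-Q6 or 31 of Cd1d1. The block was added for the gene lists after the data were seen, and gave 13 in place of 9 partners higher without cytokine.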
